A study of Arabidopsis thaliana with 12 samples.

Results

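The GASA genes (gibberellic acid stimulated in Arabidopsis) encode small secreted peptides with a conserved, cysteine-rich C-terminal domain. The transcripts described here are the 8 loci GASA1 (AT1G75750), GASA2 (AT4G09610), GASA3 (AT4G09600), GASA4 (AT5G15230), GASA5 (AT3G02885), GASA6 (AT1G74670), GASA10 (AT5G59845) and GASA14 (AT5G14920), taken by locus identifier from a table of 27827 loci. All 8 were present, each with 1 value per array. Another 7 genes of the family, GASA7 to GASA9, GASA11 to GASA13 and GASA15, were measured on the same arrays and serve for comparison.

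RNA came from whole Arabidopsis thaliana seedlings, hybridised to 12 Affymetrix arrays. Plates without sugar were chilled for 48 h, given 6 h of white light at 100 µmol m-2 s-1, and kept in darkness for 4 days at 22 °C. There were 4 genotypes with 3 biological replicates each, which were harvested in successive weeks. The arrays are lettered A, B and C, and the labels do not say whether a letter stands for the same week in every genotype. The lines cnu1 and cnu2 are suppressor mutants isolated from PMEIox and still carry its transgene. PMEIox is a transformant of Col-0, and Col-0 is the wild type. From knowledge of the study, the transgene of PMEIox overexpresses PMEI5, an inhibitor of the enzymes that remove methyl groups from cell wall pectin. The cnu1 mutation lies in BRI1, the brassinosteroid receptor, and the cnu2 mutation in the receptor-like protein gene RLP44. The labels do not name the promoter of the transgene, nor say how many transformants or mutant isolates stand behind a genotype.

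Gibberellin is a growth hormone that is needed for the elongation of the hypocotyl in darkness and for germination. It binds GID1 receptors, and the hormone-receptor complex leads to the breakdown of DELLA proteins, which restrain growth. Many GASA genes are known to respond to gibberellin, some upward and some downward, and several respond to other hormones as well. Because the peptides are secreted, they are thought to act in the cell wall or at the cell surface.

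All values are log2 intensities as deposited, and differences are the first-named genotype minus the second on that scale. A locus was called where limma's adjusted p (Benjamini-Hochberg over all 27827 loci of a comparison) was under 0.05, and "rose" and "fell" are used of called loci alone. PMEI5 (AT2G31430) read 12.53 to 12.69 on the 9 arrays of the transgenic lines, against 8.19, 5.05 and 4.49 on arrays A, B and C of Col-0. Array A of Col-0 thus stood apart from the other wild-type arrays in the transgene's own transcript, and tests against Col-0 are also given without it. The 4 genes listed as markers of etiolated seedlings, PORA, RBCS1A, PYK10 and HLS1, averaged 10.63 to 10.94 per array. RBCS1A and PYK10, with means of 13.32 and 13.03 over all arrays, lay above PORA and HLS1 and raised this average. The average therefore does not show that the seedlings were etiolated, and whether RBCS1A marks that state was not tested. Limma called 0 of the 4 genes in any comparison. At an unadjusted p under 0.05 there were 2 in each suppressor against PMEIox. PORA differed by -0.66 in cnu1 against PMEIox, which the mean of the 4 hides. RBCS1A read 13.34 on all arrays of PMEIox, cnu2 and Col-0, and whether the scale limits it was not tested. The 6 floral organ markers averaged 2.53 to 2.94. Among the floral markers PI (AT5G20240) was called, at 2.75 ± 0.10 in cnu1, 3.06 ± 0.11 in cnu2, 3.84 ± 0.19 in PMEIox and 3.02 ± 0.15 in Col-0 (SD, n = 3 each), and its part in the results was not tested. The table has no detection calls, so how near to background a low value lies is unknown. Of all loci, 13.2% to 25.9% did not overlap between the genotypes compared, depending on the comparison. Non-overlap of 3 arrays with 3 is thus common.

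In PMEIox, 5 of the 8 GASA transcripts passed the test against Col-0, while 5.25% of all loci did. GASA14 rose 2.26-fold, GASA2 3.01-fold, GASA3 3.10-fold and GASA1 1.35-fold, and GASA6 fell 2.97-fold. Without array A of Col-0, 3 of 8 were called, namely GASA14, GASA3 and GASA6, beside 1047 of all 27827 loci (1460 with it). In cnu1 against PMEIox, GASA6 rose 2.43-fold, GASA3 fell 3.53-fold and GASA14 fell 1.69-fold, which makes 3 of 8 beside 6.44% of all loci. In cnu2 against PMEIox, GASA6 rose 2.06-fold, and GASA3 and GASA14 fell, again 3 of 8 beside 3.25% of all loci. The comparisons share the PMEIox arrays and are not independent. In whole seedlings, a change in the number of cells that express a gene and a change in the RNA per cell cannot be told apart.

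**Figure D1:**
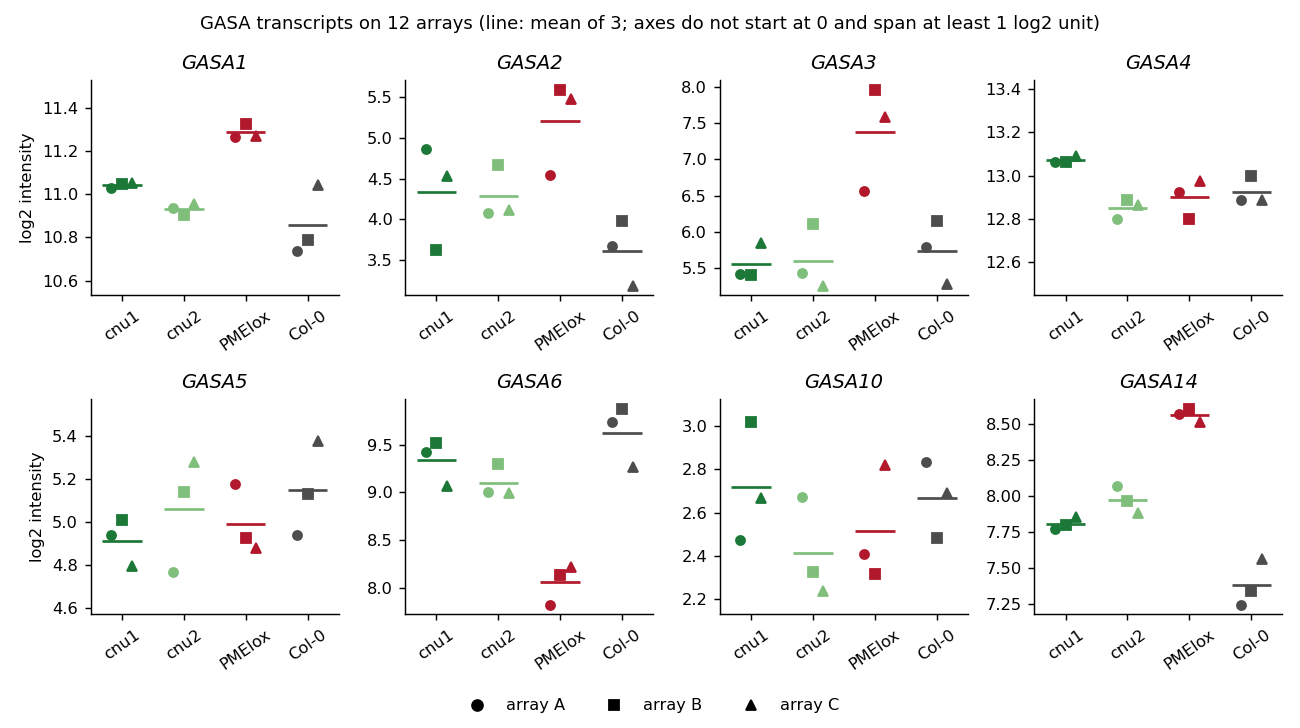
Log2 intensity of each GASA transcript on every array, by genotype (x axis), with symbols for arrays A, B and C and a line at the mean of 3. PMEIox stands alone at the top for GASA14, GASA1 and GASA3 and alone at the bottom for GASA6, while GASA4, GASA5 and GASA10 spread over at most 0.31 between genotype means.

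GASA6 is known in Arabidopsis to promote seed germination downstream of gibberellin and abscisic acid. Its transcript read 9.42, 9.52 and 9.07 on arrays A, B and C of cnu1, 9, 9.30 and 8.996 in cnu2, 7.82, 8.13 and 8.21 in PMEIox, and 9.73, 9.88 and 9.27 in Col-0. The 3 PMEIox arrays lay below every other array, with no overlap. GASA6 fell by 1.57 ± 0.18 (SE) in PMEIox against Col-0 (limma, adjusted p = 0.000266), and by 1.52 without array A of Col-0 (adjusted p = 0.00195). It rose by 1.28 ± 0.18 in cnu1 against PMEIox (adjusted p = 0.000844). In cnu2 against PMEIox it rose by 1.04 ± 0.18 (adjusted p = 0.00716). The levels ran in the order Col-0, cnu1, cnu2 and PMEIox, and of the neighbours in this order only cnu2 and PMEIox were called apart. The 3 calls of GASA6 held under the 13 alternatives able to differ from the values as deposited.

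GASA14, whose peptide carries a long proline-rich stretch before the GASA domain, is known to affect leaf growth and tolerance of abiotic stress. It read 7.77, 7.79 and 7.85 on the arrays of cnu1, 8.07, 7.97 and 7.88 in cnu2, 8.57, 8.60 and 8.51 in PMEIox, and 7.24, 7.34 and 7.56 in Col-0. No 2 genotypes overlapped, and their order, PMEIox, cnu2, cnu1 and Col-0 from high to low, was the reverse of that of GASA6. Of the neighbours in this order, only PMEIox and cnu2 were called apart. GASA14 rose by 1.18 ± 0.10 (SE) in PMEIox against Col-0 (limma, adjusted p = 3.62e-05), and by 1.11 without array A of Col-0 (adjusted p = 0.000267). It stood at rank 41 of all loci by p in that comparison and at rank 201 by the size of the difference. It fell by 0.76 ± 0.10 in cnu1 (adjusted p = 0.000607) and by 0.59 ± 0.10 in cnu2 (adjusted p = 0.00716), both against PMEIox.

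Unlike the other members, GASA14 was also called between a suppressor and the wild type. It was higher by 0.59 ± 0.10 (SE) in cnu2 than in Col-0 (limma, adjusted p = 0.0463), the call of 1 of 8 members beside 0.187% of all loci. That call ended under 9 of 13 alternatives, among them a replicate block by letter (adjusted p = 0.0737) and the omission of array A or B of Col-0 (adjusted p = 0.134 without A and 0.14 without B) and of any 1 array of cnu2 (adjusted p from 0.0863 to 0.175). In cnu1 against Col-0, where 0.622% of all loci were called, none of the 8 members was called by limma (0, and 1 by its unadjusted p under 0.05). The 1 was GASA14, at 0.42 ± 0.10 (adjusted p = 0.0884). Its difference without array A of Col-0 was 0.35 (adjusted p = 0.224). Over 13 alternatives the adjusted p ranged from 0.0204 to 0.292, and 3 of them gave a call, namely trend and robust settings, a filter on low loci (adjusted p = 0.0339) and the omission of array C of Col-0 (adjusted p = 0.0474).

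**Figure D2:**
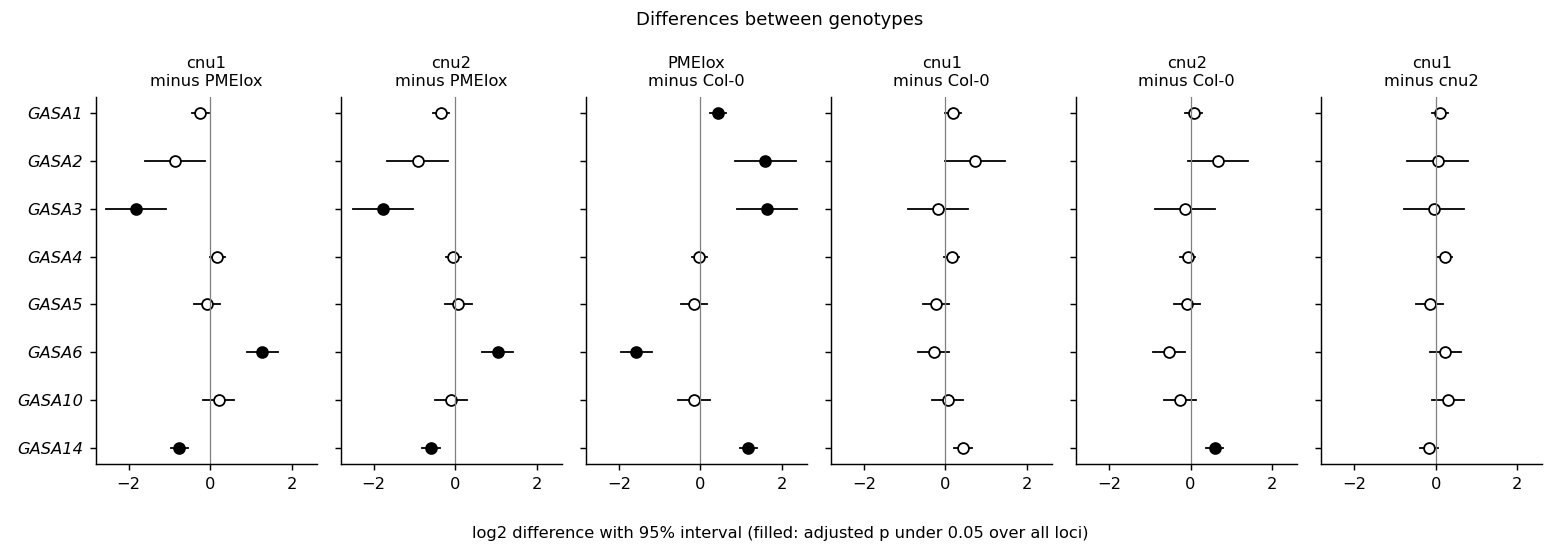
Log2 differences of the 8 GASA transcripts in the 6 comparisons of genotypes, with 95% intervals from the limma fit. Filled points have an adjusted p under 0.05 over all loci, and 5 of 8 points are filled for PMEIox minus Col-0, 3 of 8 for each suppressor minus PMEIox, 0 of 8 for cnu1 minus Col-0, 1 of 8 for cnu2 minus Col-0 and 0 of 8 for cnu1 minus cnu2.

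GASA2 and GASA3 are neighbouring genes on chromosome 4 and are known as transcripts of siliques and dry seeds. GASA3 read 5.42, 5.40 and 5.84 on the arrays of cnu1, 5.43, 6.11 and 5.26 in cnu2, 6.56, 7.97 and 7.59 in PMEIox, and 5.79, 6.15 and 5.28 in Col-0. GASA2 read 4.86, 3.63 and 4.53 in cnu1, 4.08, 4.67 and 4.12 in cnu2, 4.55, 5.59 and 5.47 in PMEIox, and 3.68, 3.99 and 3.19 in Col-0. PMEIox was above all other arrays for GASA3, whereas for GASA2 its array A lay within the range of both suppressors.

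GASA3 rose by 1.63 ± 0.34 (SE) in PMEIox against Col-0 (limma, adjusted p = 0.0149), and by 1.66 without array A of Col-0 (adjusted p = 0.042). It fell by 1.82 ± 0.34 in cnu1 (adjusted p = 0.00654) and by 1.77 ± 0.34 in cnu2 (adjusted p = 0.0155), both against PMEIox. GASA2 rose by 1.59 ± 0.34 in PMEIox against Col-0 (adjusted p = 0.0183), and without array A of Col-0 it missed the threshold at 1.62 (adjusted p = 0.0501). Against PMEIox, GASA2 differed by -0.87 ± 0.34 in cnu1 (adjusted p = 0.177) and by -0.92 ± 0.34 in cnu2 (adjusted p = 0.186). The replicates of this pair spread more widely, with a pooled SD within genotypes of 0.50 for each gene, while it was 0.24 for GASA6 and 0.10 for GASA14. Between PMEIox and Col-0, the calls of both genes ended without array C of Col-0 and without array B or C of PMEIox (adjusted p from 0.0562 to 0.0769). The call of GASA3 in cnu2 against PMEIox ended without array A or C of cnu2 and without array B or C of PMEIox (adjusted p from 0.0536 to 0.063).

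Markers of seed storage moved with GASA2 and GASA3. The mean of 11 storage markers (cruciferins, seed albumins, oleosins and M17) was 5.24 to 5.71 on the arrays of cnu1, 5.37 to 6.22 in cnu2, 7.80 to 8.31 in PMEIox and 5.43 to 5.66 in Col-0. All 11 rose in PMEIox against Col-0 (median difference 2.69, and 2.67 without array A of Col-0), where 5.25% of all loci were called. In each suppressor against PMEIox 10 fell, beside 6.44% of all loci called in cnu1 and 3.25% in cnu2. SESA3 (AT4G27160), a seed albumin gene, averaged 6.02 ± 0.23 in cnu1, 6.37 ± 0.39 in cnu2, 9.88 ± 0.17 in PMEIox and 6.39 ± 0.22 in Col-0 (SD, n = 3 each). Within PMEIox, array A was lowest for the storage mean, GASA2 and GASA3 alike, and also for GASA6. Array B of cnu1 was likewise lowest for the storage mean, GASA2 and GASA3. In cnu2, array C was highest for the storage mean but lowest for GASA3. In Col-0, array C was highest for the storage mean but lowest for GASA2 and GASA3. Across the 12 arrays the storage mean had a Pearson r of 0.88 with GASA3 and 0.77 with GASA2. For the deviations of arrays from their genotype means r was 0.30 for GASA3 and 0.52 for GASA2. The storage mean had r = -0.91 with GASA6, 0.86 with GASA14 and 0.84 with GASA1, and r of the deviations was -0.03 with GASA6, -0.18 with GASA14 and 0.28 with GASA1. These arrays come from 4 genotypes and only PMEIox stands apart, so the values are a description. The part of seed transcripts in the result was not tested.

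**Figure D3:**
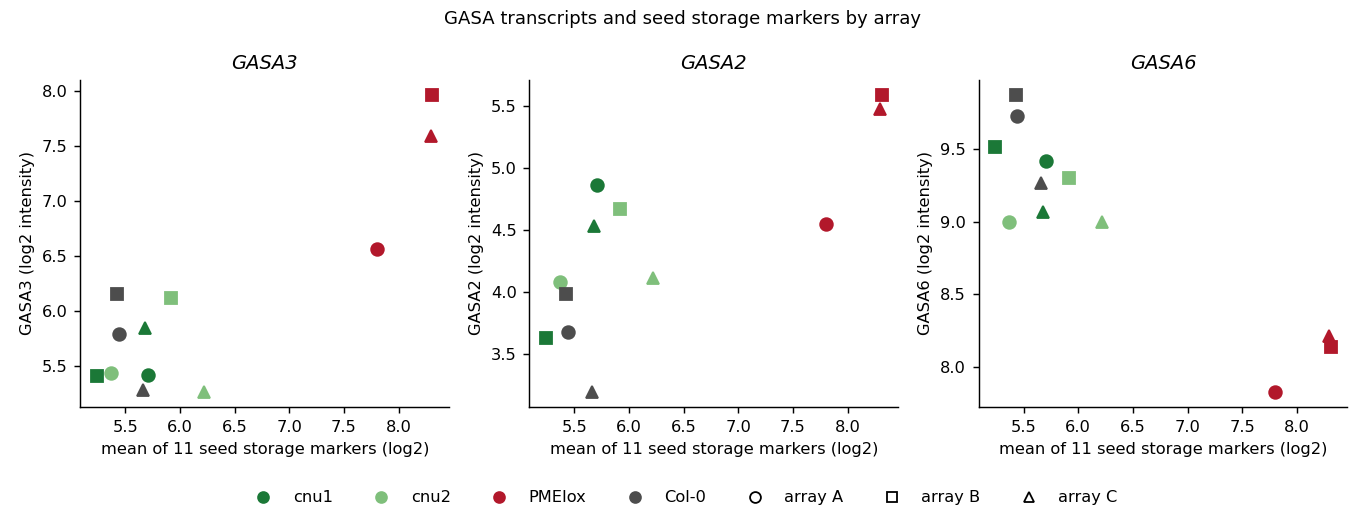
GASA3, GASA2 and GASA6 (y axes, log2 intensity) against the mean of 11 seed storage markers (x axis, log2) on each of the 12 arrays, coloured by genotype. The 3 PMEIox arrays have storage means of 7.80 to 8.31 and the other 9 lie at 5.24 to 6.22.

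GASA2 and GASA3 also varied together between replicates, with r = 0.78 for their deviations from the genotype means over 12 arrays. Whether their probes share signal was not tested. The measured loci on either side of the pair, NHL22 (AT4G09590) and AT4G09620, differed by -0.51 (adjusted p = 0.415) and -0.07 (adjusted p = 0.848) in PMEIox against Col-0 by the same limma fit. Over the whole set, 0 of the 14 measured loci directly flanking a member or this pair were called by limma in any of the 6 comparisons (0 to 3 per comparison at an unadjusted p under 0.05), and their differences lay between -0.51 and 0.38. Without array A of Col-0 the count was also 0 in each comparison (0 to 2 at an unadjusted p under 0.05). Of the 14 loci next beyond, 1 was called in PMEIox against Col-0, MYB31 (AT1G74650) near GASA6 at 0.65 (adjusted p = 0.0352), and it was not called without array A of Col-0 (adjusted p = 0.113). In cnu1 against PMEIox 1 was called, AT4G09580 near GASA3 at 0.42 (adjusted p = 0.0237), and in the other 4 comparisons 0 were called (1 or 2 at an unadjusted p under 0.05). Across all loci, 0.187% to 6.44% were called in the 6 comparisons.

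GASA1, known to be induced by gibberellin, changed the least among the called members. It read 11.03, 11.05 and 11.05 on the arrays of cnu1, 10.94, 10.90 and 10.96 in cnu2, 11.27, 11.33 and 11.27 in PMEIox, and 10.74, 10.79 and 11.04 in Col-0. The PMEIox arrays were the 3 highest, and both suppressors overlapped Col-0. GASA1 rose by 0.43 ± 0.09 (SE) in PMEIox against Col-0 (limma, adjusted p = 0.0183). The call ended without array A of Col-0, where the difference was 0.37 (adjusted p = 0.0702), and also without array B of either genotype or array A of PMEIox (adjusted p from 0.0544 to 0.0754). With arrays centred on 10 reference genes it was 0.37 (adjusted p = 0.0681). Against PMEIox, GASA1 differed by -0.24 ± 0.09 in cnu1 (adjusted p = 0.159) and by -0.36 ± 0.09 in cnu2 (adjusted p = 0.0633). The cnu2 difference was called under 3 of 13 alternatives (adjusted p from 0.0102 to 0.0388), and over all 13 its adjusted p ranged from 0.0102 to 0.174.

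GASA4, GASA5 and GASA10 were called in 0 of the 6 comparisons by limma, where 0.187% to 6.44% of all loci were called. A count of 0 is near that share. Of the 3 only GASA4, in 1 comparison, had an unadjusted p under 0.05. GASA4, which is known to act in meristems and in flower and seed development, averaged 13.07 ± 0.02 in cnu1, 12.85 ± 0.05 in cnu2, 12.90 ± 0.09 in PMEIox and 12.93 ± 0.06 in Col-0 (SD, n = 3 each). Its values in cnu1 lay above all other arrays, and its mean differed by 0.22 ± 0.08 (SE) between cnu1 and cnu2 (adjusted p = 0.449). GASA5, known for effects on flowering time and heat tolerance, ranged from 4.77 to 5.37 over the 12 arrays, and GASA10 from 2.24 to 3.02. For both genes, the values of all genotypes overlapped. By mean level, GASA4 stood at percentile 99.9 of all loci and GASA10 at percentile 11.5. Whether the ends of the scale limit the differences of these genes was not tested. In PMEIox against Col-0 the 95% intervals ran from -0.21 to 0.16 for GASA4, from -0.48 to 0.17 for GASA5 and from -0.54 to 0.23 for GASA10. Without array A of Col-0 the differences were -0.04 for GASA4, -0.26 for GASA5 and -0.07 for GASA10 (adjusted p from 0.452 to 0.905).

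The suppressors themselves were compared to ask whether a BRI1 and an RLP44 mutation leave GASA transcripts at different levels. Between cnu1 and cnu2, limma called 0 of 8 members (1, GASA4, by its unadjusted p under 0.05), beside 0.568% of all loci. The difference was 0.24 for GASA6 (95% interval -0.15 to 0.62), -0.17 for GASA14 (-0.38 to 0.05), -0.05 for GASA3 (-0.79 to 0.69), 0.05 for GASA2 (-0.69 to 0.80) and 0.11 for GASA1 (-0.09 to 0.31). The intervals leave room for differences of those sizes, so equal levels were not shown. The values of cnu1 and cnu2 did not overlap for 3 of 8 members, GASA1, GASA4 and GASA14, beside 13.2% of all loci. For GASA14, cnu2 was nearer to PMEIox, but the difference was not called (adjusted p = 0.734). For GASA6 the values of cnu1 and cnu2 overlapped.

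The median difference of the 8 members was 0.20 in PMEIox against Col-0 (0.16 without array A of Col-0), -0.16 in cnu1 against PMEIox and -0.23 in cnu2 against PMEIox. Over all loci the medians were -0.00488, -0.00195 and 3.33e-07. Because the members moved in opposite directions, these medians describe none of them well. GASA6 and GASA14 had a Pearson r of -0.94 over the 12 arrays, GASA1 and GASA14 of 0.89, and GASA1 and GASA6 of -0.89. For the deviations from genotype means r was -0.60 for GASA6 and GASA14, 0.80 for GASA1 and GASA14, and -0.63 for GASA1 and GASA6. The SD of GASA1 was 0.16 in Col-0 and 0.01 to 0.03 in the other genotypes. That of GASA14 was 0.16 in Col-0 and 0.04 to 0.10 in the others. These r of deviations thus rest largely on the Col-0 arrays, and they were not computed without array A of Col-0.

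Among 602 loci whose genotype means span at least 1 log2 unit, those with the pattern most like each called member over the 12 arrays were found by Pearson r. These r values mostly follow the 4 genotype means, so r of the deviations from those means is given beside each. GASA6 was most like AT1G08230 (r = 0.98, deviations 0.80) and AT2G37870 (r = 0.97, deviations 0.95). GASA14 was most like AT3G51410 (r = 0.98, deviations 0.61) and CLE44 (AT4G13195, r = 0.97, deviations 0.30). GASA3 was most like AT3G05950 (r = 0.94, deviations 0.80) and the storage marker OLEO2 (AT5G40420, r = 0.94, deviations 0.71). GASA1 was most like CYP709B2 (AT2G46950, r = 0.93, deviations 0.49) and GEA6 (AT2G40170, r = 0.93, deviations 0.65). GASA2 was most like AT3G06460 (r = 0.88, deviations 0.63) and AT3G21380 (r = 0.87, deviations 0.66). On these arrays, replicates of GASA6 and AT2G37870 varied together within genotypes, and those of GASA14 and CLE44 much less so. The loci were picked by an r that includes these deviations. The r of the deviations is therefore a description and no separate check. For GASA1 and GASA14, most of the spread within genotypes came from Col-0.

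Among the other 7 GASA genes, GASA7 (AT2G14900) was called and the remaining 6 were not called in any comparison. Over all loci, 0.187% to 6.44% were called per comparison. The means of those 6 over all arrays were 1.55 to 4.15, under the median value of 5.47. Whether they were expressed at all is unknown. GASA7 read 9.35, 9.44 and 9.40 on the arrays of cnu1, 9.61, 9.59 and 9.71 in cnu2, 9.96, 10.01 and 9.79 in PMEIox, and 9.36, 9.36 and 9.33 in Col-0. PMEIox was highest with no overlap, as for GASA14 and GASA1. GASA7 rose by 0.57 ± 0.09 (SE) in PMEIox against Col-0 (limma, adjusted p = 0.00245, and 0.0103 without array A of Col-0) and fell by 0.52 ± 0.09 in cnu1 against PMEIox (adjusted p = 0.00332). In cnu2 against PMEIox it differed by -0.28 ± 0.09 (adjusted p = 0.111), and its difference between cnu1 and cnu2 was -0.24 ± 0.09 (adjusted p = 0.421). Of the other 6, the differences of PMEIox from Col-0 lay between -0.21 and 0.13, and between -0.26 and 0.22 without array A of Col-0.

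Genes that make, inactivate and perceive gibberellin were read beside the peptides. Of 14 synthesis genes, 2 rose and 0 fell in PMEIox against Col-0, where 5.25% of all loci were called. GA20OX2 (AT5G51810), a late synthesis enzyme, averaged 5.76 ± 0.19 in cnu1, 6.14 ± 0.20 in cnu2, 6.99 ± 0.27 in PMEIox and 5.35 ± 0.43 in Col-0 (SD, n = 3 each). It rose by 1.64 ± 0.20 (SE) in PMEIox against Col-0 (limma, adjusted p = 0.000605), and GA20OX1 (AT4G25420) of the same step rose by 0.85 ± 0.16 (adjusted p = 0.0101). Without array A of Col-0 the difference was 1.40 for GA20OX2 (adjusted p = 0.00143) and 0.82 for GA20OX1 (adjusted p = 0.0379). Against PMEIox, 3 synthesis genes fell and 0 rose in cnu1, and 2 fell and 0 rose in cnu2. Of all loci, 6.44% were called in cnu1 and 3.25% in cnu2 against PMEIox. GA20OX2 fell by 1.23 in cnu1 and by 0.84 in cnu2, and GA3OX1 (AT1G15550), which makes the active hormone, fell by 0.47 in cnu1 and by 0.59 in cnu2. GA3 (AT5G25900), which encodes an oxidase of an early step, fell by 0.43 in cnu1.

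Among 7 genes of gibberellin inactivation, GA2OX8 (AT4G21200) changed most. It averaged 3.60 ± 0.15 in cnu1, 5.11 ± 0.03 in cnu2, 6.05 ± 0.39 in PMEIox and 4.28 ± 0.30 in Col-0 (SD, n = 3 each), and PMEIox was above all other arrays. GA2OX8 rose by 1.76 ± 0.19 (SE) in PMEIox against Col-0 (limma, adjusted p = 0.000182, and 0.000902 without array A of Col-0) and fell by 2.45 ± 0.19 in cnu1 and by 0.94 ± 0.19 in cnu2 against PMEIox. It was the 1 gene of the gibberellin lists called between the suppressors, where 0.568% of all loci were called. The difference of GA2OX8 was -1.505 ± 0.19 for cnu1 minus cnu2 (adjusted p = 0.00437). GA2OX4 (AT1G47990) fell by 0.55 in PMEIox against Col-0 (adjusted p = 0.0476) and rose by 0.58 in cnu2 against PMEIox (adjusted p = 0.05 after rounding, just under the threshold). Without array A of Col-0, its difference of -0.47 from Col-0 was not called (adjusted p = 0.143).

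Of 12 signalling genes, 1 was called, the DELLA gene RGL3 (AT5G17490), in comparisons where 3.25% to 6.44% of all loci were called. It fell by 0.47 ± 0.11 (SE) in PMEIox against Col-0 (limma, adjusted p = 0.0297), a call that ended without array A of Col-0 (adjusted p = 0.0786). RGL3 rose by 0.64 ± 0.11 in cnu1 (adjusted p = 0.00397) and by 0.46 ± 0.11 in cnu2 (adjusted p = 0.0433), both against PMEIox. The receptor genes GID1A, GID1B and GID1C and the DELLA genes GAI and RGA were not called in these comparisons. Against Col-0, 0 of the 33 gibberellin genes were called in either suppressor by limma, with 3 in cnu1 and 5 in cnu2 at an unadjusted p under 0.05. Of all loci, 0.622% were called in cnu1 and 0.187% in cnu2, so a count of 0 is near the share over all loci. In the same comparisons without array A of Col-0, 0 were called, with 1 in cnu1 and 4 in cnu2 at an unadjusted p under 0.05.

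**Figure D4:**
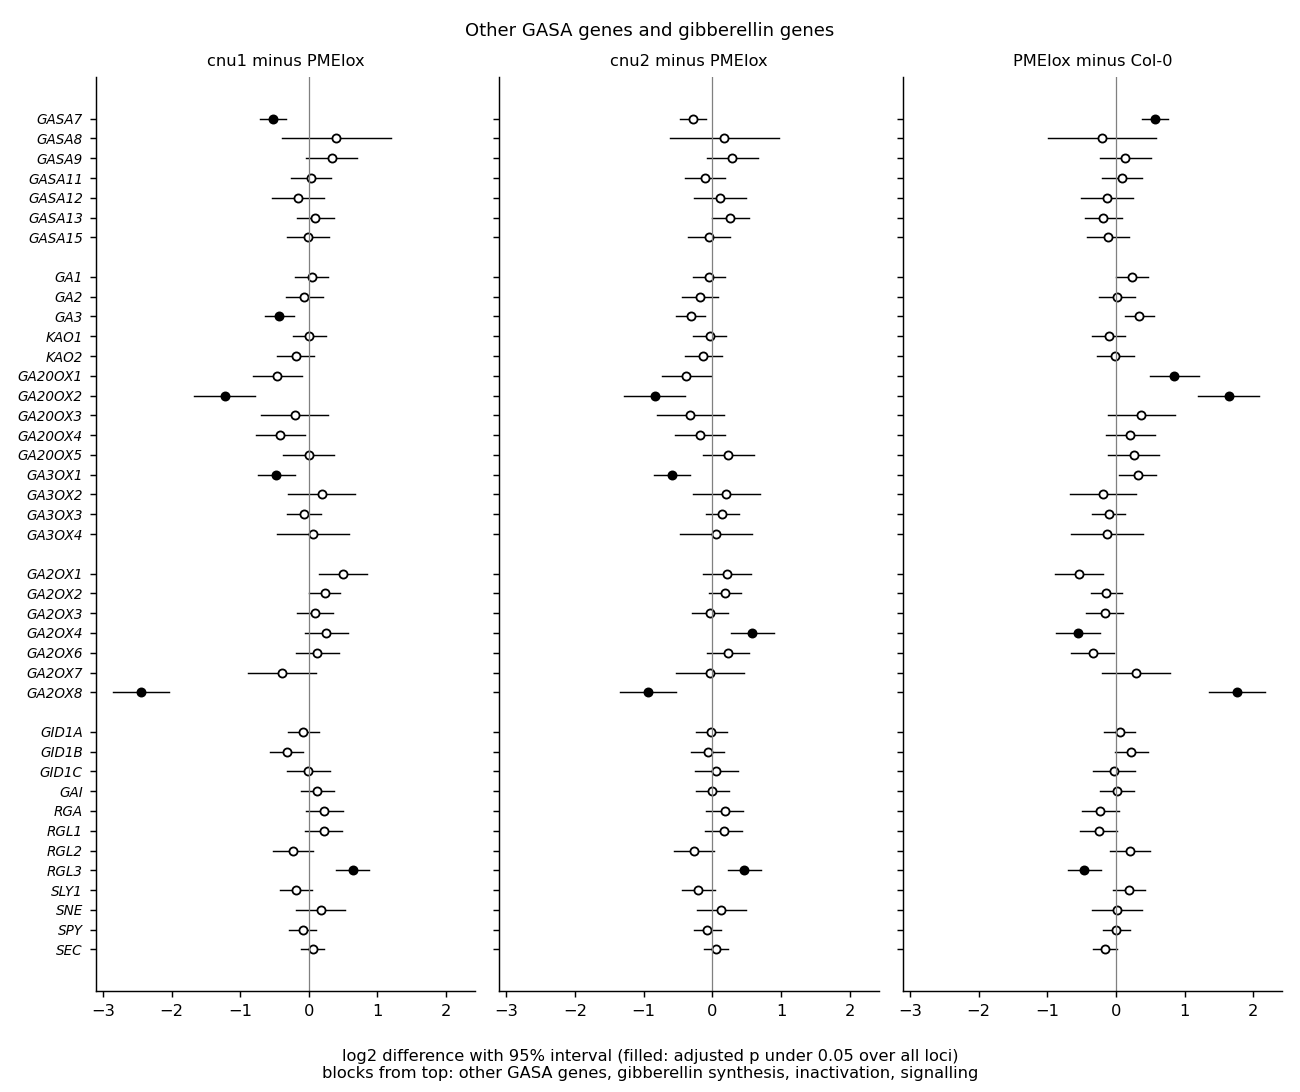
Log2 differences with 95% intervals for the other 7 GASA genes and 33 genes of gibberellin synthesis, inactivation and signalling, in blocks from top to bottom. Filled points have an adjusted p under 0.05 over all loci, and GASA7, GA20OX2, GA2OX8 and RGL3 lie on opposite sides of 0 in PMEIox minus Col-0 and in each suppressor minus PMEIox (GASA7 not called in cnu2).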

How the data were processed

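Biotinylated cRNA was hybridised to Affymetrix arrays, per the labels' protocols. The deposited table holds 1 log2 intensity per locus and array. The log2 scale of the deposited values was read from their range (0.785 to 13.9), since the array type, background correction, probe summary and log base are not given in the sources used here. When sorted, the 12 arrays held the same values, which the authors' processing must have equalised, and the deposited values were used with no further scaling. The number of arrays limits the precision. Genotypes came from sample titles.

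The fit was limma 3.58.1 in R 4.3.3 (lmFit on 4 genotype means over 12 arrays, eBayes, 8 residual and 4.06 prior degrees of freedom, two-sided, Benjamini-Hochberg over 27827 loci), tested on simulated data. Symbols and gene order came from a RefSeq table of TAIR10.1, which held 27241 of the loci. Its coordinates are not printed. Peptide and promoter sequences were not used here.

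All 8 members are named, with up to 3 called genes of each list by smallest adjusted p and the 2 loci of highest Pearson r to each called member. Genes that were not called or that flank a member were named after their values were seen. The members, lists, tests and alternatives were chosen with earlier results of these data known. Alternatives were quantile normalization, centring on medians or on 10 reference genes, leaving out the lowest 40% of loci (16696 remained, 6 of the 8 members among them), trend and robust eBayes (statmod 1.5.0), array weights, the compared genotypes alone, a minimum difference of 1, a replicate block, and omission of each array in turn. Called genes of the other lists were also read without array A of Col-0, chosen after seeing the data. Figures were drawn with matplotlib 3.10.9.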

Additional observations from a re-analysis of the deposited data

How the results depend on the processing

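Quantile normalization and median centring returned the deposited values' results by construction, since the arrays share one distribution, and are not counted as tests. Every called difference of a member kept its direction under the other alternatives. The calls of GASA6, of GASA14 in PMEIox against Col-0 and of GASA3 in cnu1 against PMEIox held in all 13 of those. GASA14 lost its calls against PMEIox only to the minimum difference of 1, being at -0.76 in cnu1 and -0.59 in cnu2. With the compared genotypes alone, which uses fewer arrays, 3 members were called in PMEIox against Col-0 (5 otherwise) and 0 in cnu2 against Col-0 (1 otherwise). GASA1 (adjusted p = 0.0946) and GASA3 (0.054) were those lost in PMEIox against Col-0, and GASA3 was also lost in cnu2 against PMEIox (0.0604). The count in cnu2 against Col-0 was also 0 with the replicate block, with centring on the reference genes and with the minimum difference. In cnu1 against Col-0 it was 1 (0 otherwise) without the lowest 40% of loci and with trend and robust settings. Without 1 array, the members called ranged from 2 to 4 in PMEIox against Col-0, from 2 to 3 in cnu2 against PMEIox, and from 0 to 1 in cnu1 and in cnu2 against Col-0. In cnu1 against PMEIox it was 3 throughout.

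Counts over all loci moved more. With the compared genotypes alone they were 868 in PMEIox against Col-0 (1460 otherwise), 441 in cnu2 against PMEIox (905), 55 in cnu1 against Col-0 (173), 0 in cnu2 against Col-0 (52, with 2798 at an unadjusted p under 0.05) and 89 in cnu1 against cnu2 (158). A minimum difference of 1 left 319 in PMEIox against Col-0, 389 in cnu1 and 196 in cnu2 against PMEIox, 56 in cnu1 and 12 in cnu2 against Col-0, and 59 in cnu1 against cnu2. Trend and robust settings gave 1490 in cnu2 against PMEIox, 631 in cnu1 against Col-0, 236 in cnu2 against Col-0 and 267 in cnu1 against cnu2, and the filter on low loci 439 in cnu1 and 117 in cnu2 against Col-0. Leaving out 1 array gave 882 to 1156 loci in PMEIox against Col-0, 1061 to 1373 in cnu1 and 395 to 602 in cnu2 against PMEIox, 45 to 175 in cnu1 and 10 to 27 in cnu2 against Col-0, and 66 to 84 in cnu1 against cnu2. The causes of these moves were not tested. Some of the alternatives put fewer arrays or loci in the fit, and the minimum difference removes called loci by construction.

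The labels do not tie the letters to harvest weeks. Same-lettered arrays of different genotypes had correlations of their deviations from -0.14 to 0.19, over 0.1 in 6 of 18 pairs. Arrays that differed in both letter and genotype had correlations from -0.131 to 0.125. The fit without the block was kept because not every same-lettered pair was over 0.1, which is a strict bar. In the other direction, 9 of 12 arrays had their best match in another genotype under their own letter, a hint from the data that the letters may mark shared conditions. The replicate block left GASA14 in cnu2 against Col-0 at an adjusted p of 0.0737 and changed no other call of a member. The median shift of all loci on centring on the reference genes was at most 0.097 in size.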
